A study of Prunus persica and Prunus armeniaca with 129 samples.

Results

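Prupe.4G061100 and Prupe.3G204300, which the study annotates as members of the pollen allergen family Ole e 1, also described as extensin-like, were followed through every apricot and peach library of the series. They were picked by identifier and are 2 of the 26872 genes in the count files. The study named them among the genes called at ecodormancy in both species and placed in a co-expression module induced there. That module, a set of genes with like patterns, was built on the peach and apricot data together. Libraries of the comparisons tested here thus also entered the choice of the genes. The contrasts behind the calls (the ecodormant apricot libraries against other dormant buds, and low against high chill peach at 600 chill hours) are described here without a test. Steps out of the ecodormant libraries are likewise given without a test. Steps from a group of 1 library, and those into or out of 600 chill hours in peach, were not tested.

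Ole e 1 is the major allergen of olive pollen, and the family named after it holds small secreted, cysteine-rich proteins with a signal peptide. Members are known from pollen and pollen tubes of several plants, and others are expressed in roots and other vegetative tissue, so the family name does not fix where a gene is expressed. Pollen forms inside the anther in stages: the tapetum, the cell layer that lines the pollen sac, first feeds the microspores and supplies the material of the outer pollen wall, then degenerates, and the grains fill and mature before the flower opens. In Prunus buds a chilling phase, endodormancy, is followed by a phase that only needs warmth, ecodormancy, and then by visible bud growth.

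The RNA came from floral buds, and at 800 chill hours from open flowers where the apricot was an early bloomer, of grafted clonal trees, with 1 library from each tree at each collection. The 60 apricot libraries cover the early blooming A2137 (Bakour) and A1956 (Palsteyn) and the late blooming A660 (Bergeron) and A1267 (Badami). They were collected at 4 chill sums (0, 100 and 400 chill hours, and then 800) and at 2 bud stages, sepal visible and petal visible. In A2137 and A1956 these 2 stages came before the flowers of 800 chill hours. The 69 peach libraries are of A209 and A340, which need little chill, and A318 and A323, which need much. All 4 are from the progeny of a cross between a low chill and a high chill cultivar. They were collected at 0, 100 and 600 chill hours and pre-bloom, with 1000 chill hours for A318 and A323 alone. By the requirements the study cites, A318 had met its chill need by 1000 chill hours and A323 had not. The study nonetheless found the A318 buds of that collection closer to endodormant ones. No treatment was given, and groups differ in genotype and in the collection time, which follows the season. Groups hold 1 to 3 libraries in apricot and 3 or 4 in peach.

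Library totals ran from 7593825 to 26253101 counts in apricot and from 494799 to 26858662 in peach, and 9 peach libraries lay under the peach median divided by 4. The study reports that the share of ribosomal RNA was a significant factor in the peach profiles, without a significant interaction with genotype or time. Levels are CPM, that is counts scaled to the same library size with TMM factors. The floor used here, 3 counts, lay before TMM scaling between 0.114 and 0.395 CPM for the apricot libraries and between 0.112 and 6.06 CPM for those of peach. The files give no gene lengths, so levels of the 2 genes are never compared with each other, only their patterns. In whole buds, fewer cells of a type and less RNA per cell cannot be told apart.

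During most of dormancy both genes were near or under the floor in apricot. Prupe.4G061100 lay between 0 and 1.59 CPM (median 0.167) in the 28 libraries of 0 to 800 chill hours other than the ecodormant ones, with 16 of them at 3 counts or fewer. Prupe.3G204300 lay between 0 and 0.281 CPM (median 0.0720) in the same libraries, with 27 of 28 at 3 counts or fewer. The steps and phenotype comparisons within 0 to 400 chill hours, in both species, called neither gene, in 11 tests of Prupe.4G061100 (edgeR adjusted p from 0.137 to 1) and 8 of Prupe.3G204300 (0.282 to 1). At an unadjusted p under 0.05 there were 1 and 0 of these, and DESeq2 called 0 of either. Of all genes, the share called was 21.7% in A1956 and 27.9% in A660 from 0 to 100 chill hours, and 3.06%, 21.6% and 20.4% in A1956, A660 and A1267 from 100 to 400. It was 0.243% and 8.74% for early against late blooming at 0 and 100 chill hours. In peach it was 14%, 16.4%, 15.5% and 21.6% in A209, A340, A318 and A323 from 0 to 100 chill hours, and 1.18% and 4.89% for low against high chill at 0 and 100. A comparison with every library at 3 counts or fewer was left out of the counts of tests. These were both A1956 steps for both genes. For Prupe.3G204300 they were also the steps from 100 to 400 chill hours in A660 and A1267, and early against late blooming at 100. The shares of all genes for these comparisons thus have no test of the gene beside them. The steps from 0 to 100 chill hours in A2137 and A1267, each with 1 library at 0 chill hours, were not tested.

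**Figure D1:**
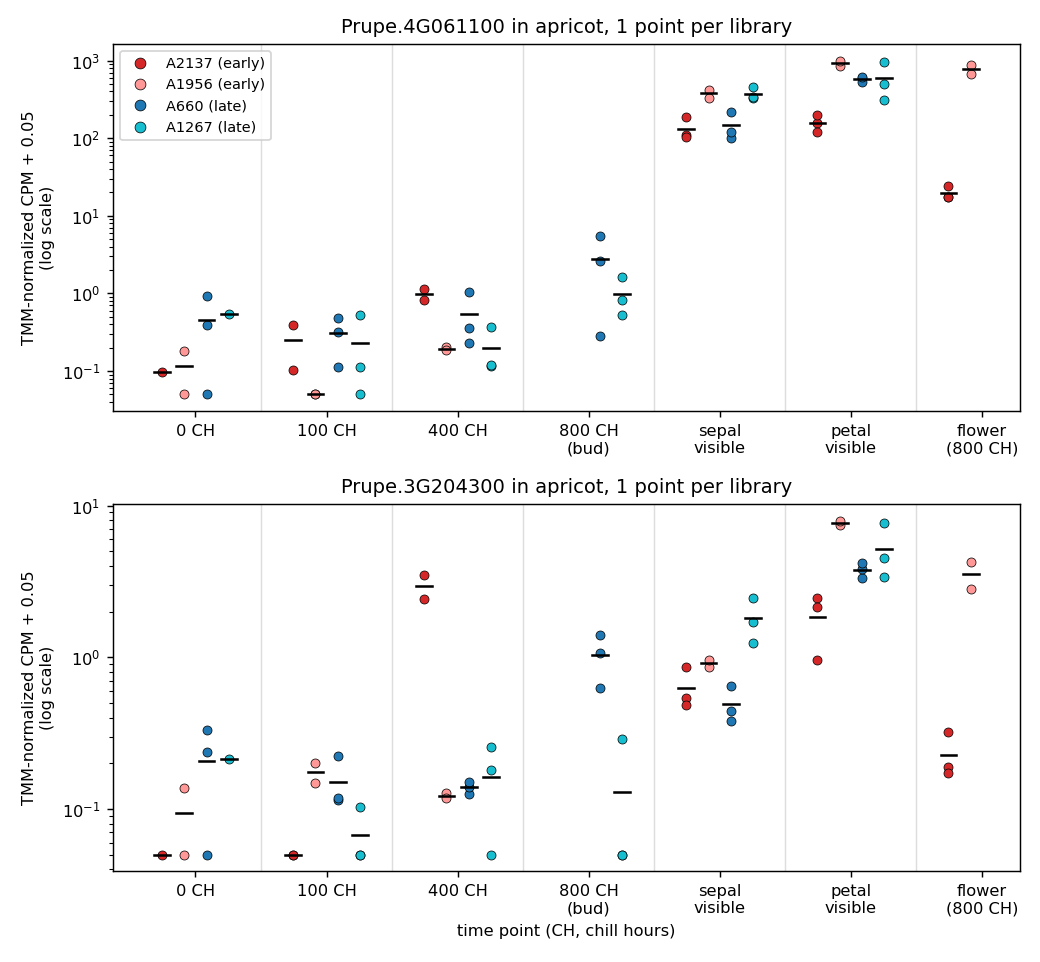
TMM-normalized CPM of Prupe.4G061100 (top) and Prupe.3G204300 (bottom) in the apricot libraries by time point, on a log axis with 0.05 added so that libraries at 0 can be drawn; each point is 1 library and the bars are group means. Prupe.4G061100 is at 1.59 CPM or below in buds outside ecodormancy and at 101 or above in every sepal and petal visible library, whereas Prupe.3G204300 has an earlier rise in A2137 at 400 and in A660 at 800 chill hours.

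At ecodormancy, the 2 genes differed in pattern. The buds that the study counts as ecodormant are the 2 libraries of A2137 collected at 400 chill hours and the 3 of A660 collected at 800. The summed level of 4 anther and tapetum genes (MS2, Prupe.7G084900, and LAP6, Prupe.2G122600, which both act in making the sporopollenin of the pollen wall; MYB80, Prupe.6G032800, a tapetum transcription factor; TAPETUM 1, Prupe.1G340300) was 2215 and 2400.4 CPM in the A2137 libraries, and 722, 1196 and 35.1 CPM in those of A660 (replicates 1, 2 and 3), against 0.159 to 2.0 CPM in the other 28 dormant libraries.

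Prupe.3G204300 was at 3.41 and 2.38 CPM in the 2 A2137 libraries (105 and 43 counts), and at 0 counts in both A2137 libraries of 100 chill hours. This was at least 17.3-fold higher, set against a floor of 3 counts in each library at 100 chill hours. In A660 at 800 chill hours it was at 1.02, 1.34 and 0.577 CPM (13, 19 and 4 counts), and 1 count was found in each of the 3 libraries of 400 chill hours. All 5 ecodormant libraries were above the highest of the other 28 dormant ones. The ratio of summed counts in A660, 800 to 400 chill hours, was 12.1 with a 95% exact counting interval of 3.83 to 61.6.

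Prupe.4G061100 was at 1.10 and 0.775 CPM in the A2137 libraries of 400 chill hours (34 and 14 counts), and at 0.0536 and 0.347 CPM at 100 chill hours. In A660 at 800 chill hours it was at 0.234, 5.45 and 2.60 CPM (3, 77 and 18 counts). Here the groups overlapped: only 2 of the 5 ecodormant libraries, A660 replicates 2 and 3, exceeded the 1.59 CPM of the highest other dormant library, which was A1267 replicate 1 at 800 chill hours. Within A660 the anther genes did not order the libraries as this gene did: replicate 1, with 3 counts of Prupe.4G061100, had an anther gene sum of 722 CPM, and replicate 3, with 18 counts, had 35.1 CPM. The ratio of group means was 4.70 in A2137 (400 to 100 chill hours) and 5.57 in A660 (800 to 400).

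A1267 at 800 chill hours was grouped with the endodormant buds, and its anther genes summed to 0.649 to 1.43 CPM there. Its Prupe.4G061100 level was 1.59, 0.761 and 0.472 CPM there, above the 0.319, 0.0653 and 0.0684 CPM of 400 chill hours in each library. The step from 400 to 800 chill hours, 2.74 ± 1.13 on the log2 scale, did not pass the test (adjusted p = 0.0639 with edgeR, and 0.0462 without A1267 replicate 3 at 800 chill hours; 29.5% of all genes called). Prupe.3G204300 was at 3 counts or fewer in all 6 of these libraries, and no fold is given.

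The opening of the bud brought the largest tested change of Prupe.4G061100. It was at 101 CPM or above in all 11 sepal visible libraries, while the anther and tapetum genes summed to 1.05 to 10.3 CPM. In A2137 and A660 this was a fall from the ecodormant sums. In A1956 the sum was 1.56 to 2.69 CPM after 0.204 to 0.997 CPM at 400 chill hours. In A1267 it was 6.87 to 10.3 CPM after 0.649 to 1.43 CPM at 800 chill hours. At sepal visible A1956 stood at 420 and 332 CPM (mean 376 ± 62.1, SD, n = 2), and A1267 at 329, 454 and 341 CPM (374 ± 68.7, n = 3). A2137 was lower, with 109, 186 and 104 CPM (133 ± 45.8, n = 3), and so was A660, with 101, 120 and 216 CPM (146 ± 61.3, n = 3). No sepal visible library overlapped with any dormant library.

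In A1956 the step from 400 chill hours to sepal visible was a gain of 11.27 ± 0.935 on the log2 scale (adjusted p = 1.445e-12, edgeR; 47.2% of genes were called in this step), from 2 counts in each of the 2 libraries to 8739 and 5117. The ratio of summed counts was 2657.8 with a 95% counting interval of 1038 to 9756. In A1267 the step from 800 chill hours was a gain of 8.68 ± 0.631 (adjusted p = 6.70e-15; 62.7% of genes called). The dormant libraries of these steps were also part of the contrast through which the study named the genes. The study holds that ecodormancy was likely not captured in A1956 and A1267, so both steps start from buds grouped as endodormant. In A2137 and A660, whose last dormant collection was ecodormant, the ratio of means was 141.6 and 52.8, given without a test.

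Prupe.3G204300 was also higher at sepal visible than in the last dormant collection, an endodormant one, in both genotypes that could be tested. At sepal visible it was at 0.817 and 0.909 CPM in A1956 and at 1.20, 2.42 and 1.66 CPM in A1267. It was at 0.813, 0.492 and 0.431 CPM in A2137 and at 0.394, 0.593 and 0.329 CPM in A660. Both tested steps passed, in A1956 (adjusted p = 0.00127, edgeR) and A1267 (adjusted p = 1.68e-07). The dormant side held 2 and 3 counts in all, so the ratios of summed counts are wide, 11.9 (95% counting interval 3.03 to 103) and 26.4 (8.73 to 131). In A2137 and A660 the last dormant collection was ecodormant, an unlike starting stage, and the values ran the other way, without a test. The ecodormant mean was 5.0 times the sepal visible mean in A2137 and 2.23 times that in A660. The ecodormant libraries did not overlap with the sepal visible ones in A2137 (lowest 2.38 against highest 0.813 CPM) but did in A660 (0.577 against 0.593 CPM). These 2 genotypes thus showed an ecodormant level, a lower level at sepal visible and a higher level at petal visible.

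From sepal to petal visible, Prupe.3G204300 rose in all 4 genotypes. It reached 7.35 and 7.88 CPM in A1956 (7.61 ± 0.375, SD, n = 2), the highest apricot mean. It reached 3.29, 3.75 and 4.11 CPM in A660 (3.71 ± 0.410, n = 3), and 3.32, 7.58 and 4.47 CPM in A1267 (5.12 ± 2.21, n = 3). In A2137 it reached 2.42, 0.909 and 2.09 CPM (1.81 ± 0.793, n = 3), where every petal visible library was still above every sepal visible one, as in the other genotypes. The gains were 3.13 ± 0.514 in A1956 (adjusted p = 4.75e-06 in edgeR, 42.4% of genes called), 3.07 ± 0.474 in A660 (1.25e-06, 44.2% called), 1.66 ± 0.470 in A2137 (0.00368, 44.8% called) and 1.53 ± 0.396 in A1267 (0.00228, 33% called). The A1267 gain was 1.11 without petal visible replicate 2 (adjusted p = 0.0502).

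Prupe.4G061100 passed the same test in 2 of 4 genotypes. It stood at 599, 530 and 621 CPM in A660 at petal visible (583 ± 47.6, SD, n = 3), a gain of 2.0 ± 0.434 (adjusted p = 2.18e-04, edgeR). It stood at 851 and 995 CPM in A1956 (923 ± 102, n = 2), a gain of 1.29 ± 0.519 (adjusted p = 0.0416) that was no longer called with either library of either stage left out (adjusted p from 0.0705 to 0.195). In both genotypes the petal visible libraries lay above all sepal visible ones. In A1267 the petal visible libraries were at 307, 966 and 499 CPM (591 ± 339, n = 3), spread around the sepal visible values (0.66 ± 0.419, adjusted p = 0.244). In A2137 they were at 156, 120 and 199 CPM (159 ± 39.7, n = 3), which overlapped the sepal visible libraries (0.25 ± 0.420, adjusted p = 0.660).

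The difference between genotypes in this step was tested directly. For A660 minus A1267 it was 1.34 ± 0.593 for Prupe.4G061100 (adjusted p = 0.140, edgeR; 13.1% of genes called) and 1.54 ± 0.620 for Prupe.3G204300 (adjusted p = 0.0995). For A2137 minus A1956 it was -1.04 ± 0.663 (adjusted p = 0.339; 10.8% called) and -1.47 ± 0.702 (adjusted p = 0.181). None passed. The A660 minus A1267 pair turned on the A1267 library with the highest petal visible levels of both genes, replicate 2, since without it the adjusted p was 0.0352 and 0.0394.

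Open flowers separated the 2 early blooming genotypes. In A1956 flowers Prupe.4G061100 stayed at 660 and 879 CPM (770 ± 155, SD, n = 2), within reach of the petal visible libraries (change -0.26 ± 0.511, adjusted p = 0.771, edgeR; 24.8% of genes called). In A2137 flowers it was at 23.9, 17.2 and 17.3 CPM (19.5 ± 3.84, n = 3), lower than every petal visible library, and fell by 3.02 ± 0.457 on the log2 scale (adjusted p = 4.35e-07, 55.6% called). The flowers of A1956 and A2137 did not overlap, and the log2 difference, A2137 minus A1956, was -5.30 ± 0.519 (adjusted p = 5.78e-11, 40.2% called).

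Prupe.3G204300 followed the same order in flowers. It was at 2.77 and 4.21 CPM in A1956, below both petal visible libraries without passing the test (-1.11 ± 0.467, adjusted p = 0.0779, edgeR). It was at 0.138, 0.122 and 0.271 CPM in A2137, that is 3, 2 and 4 counts, and fell by 3.34 ± 0.547 (adjusted p = 1.905e-06). The log2 difference between A2137 and A1956 flowers was -4.29 ± 0.562 (adjusted p = 4.998e-08), with no overlap. The contrast of the petal visible to flower change between the genotypes, added after these values were seen, was -2.76 ± 0.678 for Prupe.4G061100 (adjusted p = 0.00282) and -2.23 ± 0.731 for Prupe.3G204300 (adjusted p = 0.0265), with 19.1% of genes called. The second of these lost its call in 7 of 10 fits that left out 1 library (each A2137 petal visible or flower library other than petal visible replicate 2 and flower replicate 3, both A1956 petal visible libraries and A1956 flower replicate 2; adjusted p from 0.0552 to 0.125). STK (Prupe.1G549600), a MADS-box gene of ovule identity, averaged 70.9 CPM in A2137 and 28.01 CPM in A1956 flowers, higher where the 2 genes were lower, and its part in the difference was not tested.

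**Figure D2:**
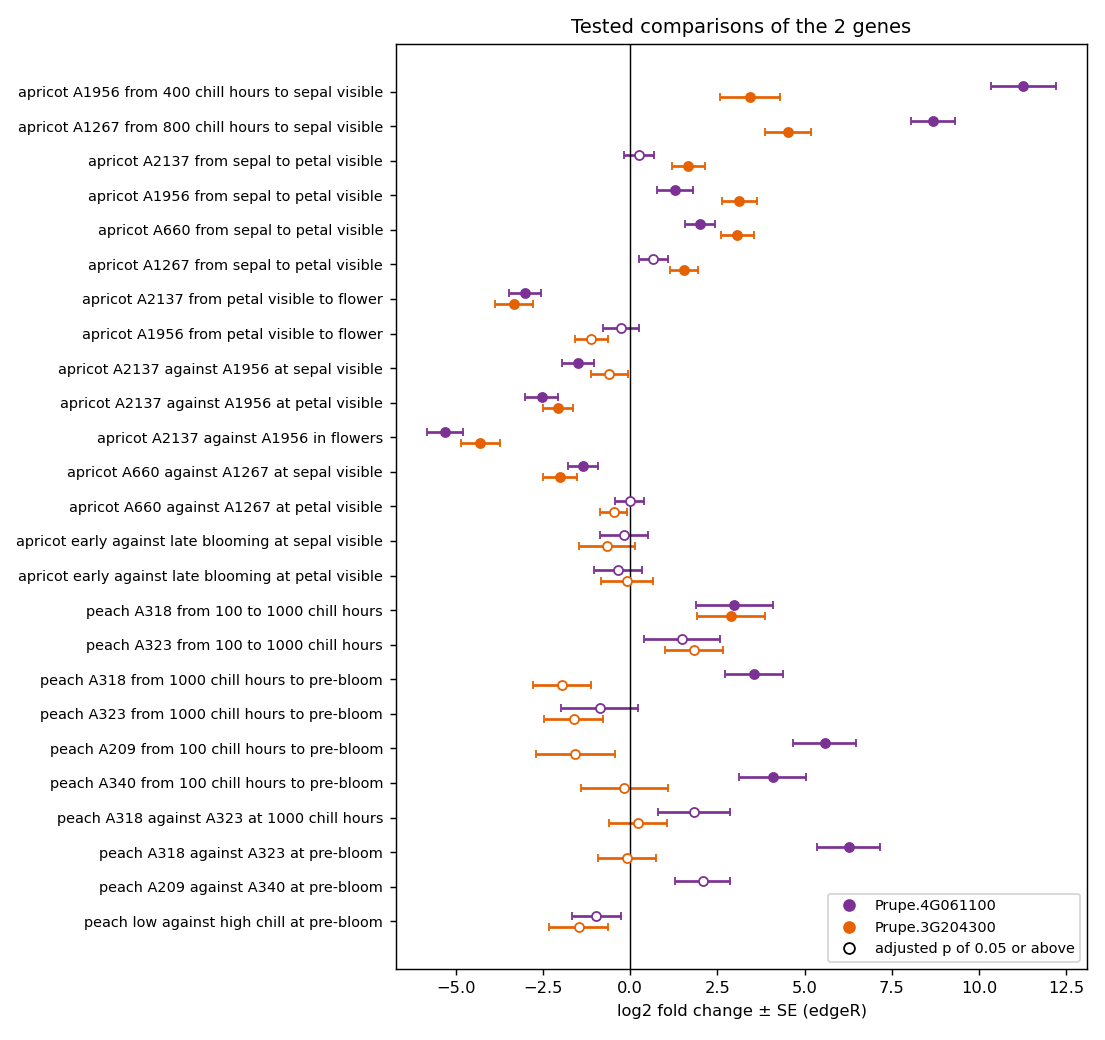
Log2 fold changes of Prupe.4G061100 (purple) and Prupe.3G204300 (orange) with their standard errors in the main tested comparisons, from edgeR; filled points passed an adjusted p of 0.05. The apricot steps up to petal visible lie to the right of 0 for both genes and the A2137 petal visible to flower step to the left. In peach the genes part at pre-bloom in A209, A340 and A318, where Prupe.4G061100 lies to the right.

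Genotypes of the same bloom class differed. At sepal visible A2137 was below A1956 in Prupe.4G061100 (-1.50 ± 0.462, adjusted p = 0.0151, edgeR; 24.8% of genes called), a call that was lost without A2137 replicate 1 or 3 or A1956 replicate 1 (adjusted p from 0.0634 to 0.117), and at petal visible in Prupe.4G061100 (-2.54 ± 0.469, adjusted p = 6.57e-05; 21.1% called) and in Prupe.3G204300 (-2.07 ± 0.426, adjusted p = 2.96e-04). Prupe.3G204300 at sepal visible gave -0.60 ± 0.540 (adjusted p = 0.442). A660 was below A1267 at sepal visible in Prupe.4G061100 (-1.36 ± 0.426, adjusted p = 0.00855, and 0.0563 without A660 replicate 1; 44.5% called) and in Prupe.3G204300 (-2.01 ± 0.485, adjusted p = 8.37e-04). At petal visible the difference was -0.02 ± 0.417 (adjusted p = 0.992; 34% called) and -0.47 ± 0.384 (adjusted p = 0.375).

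Early against late blooming trees, the comparison of the study's phenotypes, gave at sepal visible -0.18 ± 0.691 for Prupe.4G061100 (adjusted p = 0.912, edgeR; 6.09% of genes called) and -0.67 ± 0.800 for Prupe.3G204300 (adjusted p = 0.673). At petal visible it gave -0.34 ± 0.692 (adjusted p = 0.834; 9.54% called) and -0.10 ± 0.746 (adjusted p = 0.961). Each class held 1 genotype that was low and 1 that was high in Prupe.4G061100 at sepal visible, and the libraries of the classes overlapped in both genes.

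Ordered by group mean in apricot, Prupe.4G061100 ran from petal visible A1956 (923 CPM) through its flowers (770), petal visible A1267 (591) and A660 (583), sepal visible A1956 (376) and A1267 (374), to A2137 and A660 at petal or sepal visible (133 to 159), A2137 flowers (19.5) and the dormant groups. Neighbours in that order overlapped, except that the ranges parted below petal visible A660, below sepal visible A1267, below sepal visible A2137 and below A2137 flowers, and at 2 places among the lowest dormant groups. Prupe.3G204300 ran from petal visible A1956 (7.61 CPM), A1267 (5.12) and A660 (3.71) and A1956 flowers (3.49) to ecodormant A2137 (2.90), which therefore stood above petal visible A2137 (1.81). Its neighbours overlapped all along, apart from the gaps below sepal visible A1956 (0.863) and below sepal visible A660 (0.439).

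At 0 and 100 chill hours the 30 peach libraries held low levels, from 0 to 3.96 CPM (median 0.776) for Prupe.4G061100 and from 0 to 2.41 CPM (median 0.545) for Prupe.3G204300, with 8 and 11 of them at 3 counts or fewer. A340 at 600 chill hours had the highest peach mean of both genes, 121.7 CPM for Prupe.4G061100 and 12.4 CPM for Prupe.3G204300. Low against high chill at this time is the contrast that chose the genes, and the values are given without a test. Prupe.4G061100 was at 38.96, 14.5, 44.6 and 8.57 CPM in A209 and at 234, 41.4, 92.6 and 118.8 CPM in A340. It was at 1.62, 0.139, 1.59 and 0.0454 CPM in A318 and at 0.764, 0.249 and 0.226 CPM in A323. The lowest low chill library was above the highest high chill one, and the ratio of the means over all libraries was 112 (97.0 to 148 with any high chill library left out, and 77.5 without A340 replicate 1).

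Prupe.3G204300 was at 15.02, 1.24, 12.8 and 3.17 CPM in A209 and at 5.43, 27.4, 6.31 and 10.5 CPM in A340 at 600 chill hours. It was at 0.442, 0.695, 0.795 and 7.49 CPM in A318 and at 0.0587, 0.797 and 0.1697 CPM in A323. Here the groups overlapped, through A318 replicate 4 with 165 counts: the ratio of means was 6.86 with that library and 20.8 without it. Ordered by mean, Prupe.4G061100 ran from A340 at 600 chill hours through A318 (68.9 CPM) and A209 (32.3) at pre-bloom to A209 at 600 chill hours (26.6), and Prupe.3G204300 from A340 and A209 (8.06) at 600 chill hours to A323 (2.97) and A318 (2.83) at 1000, and all neighbours named overlapped.

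In A340 at 600 chill hours, replicate 1 had the highest Prupe.4G061100 level and the lowest Prupe.3G204300 level of the 4 libraries, and replicate 2 had the reverse. The same replicate 1 had an anther and tapetum gene sum of 23.6 CPM, against 1602 to 1936 CPM in the other 3 A340 libraries.

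**Figure D3:**
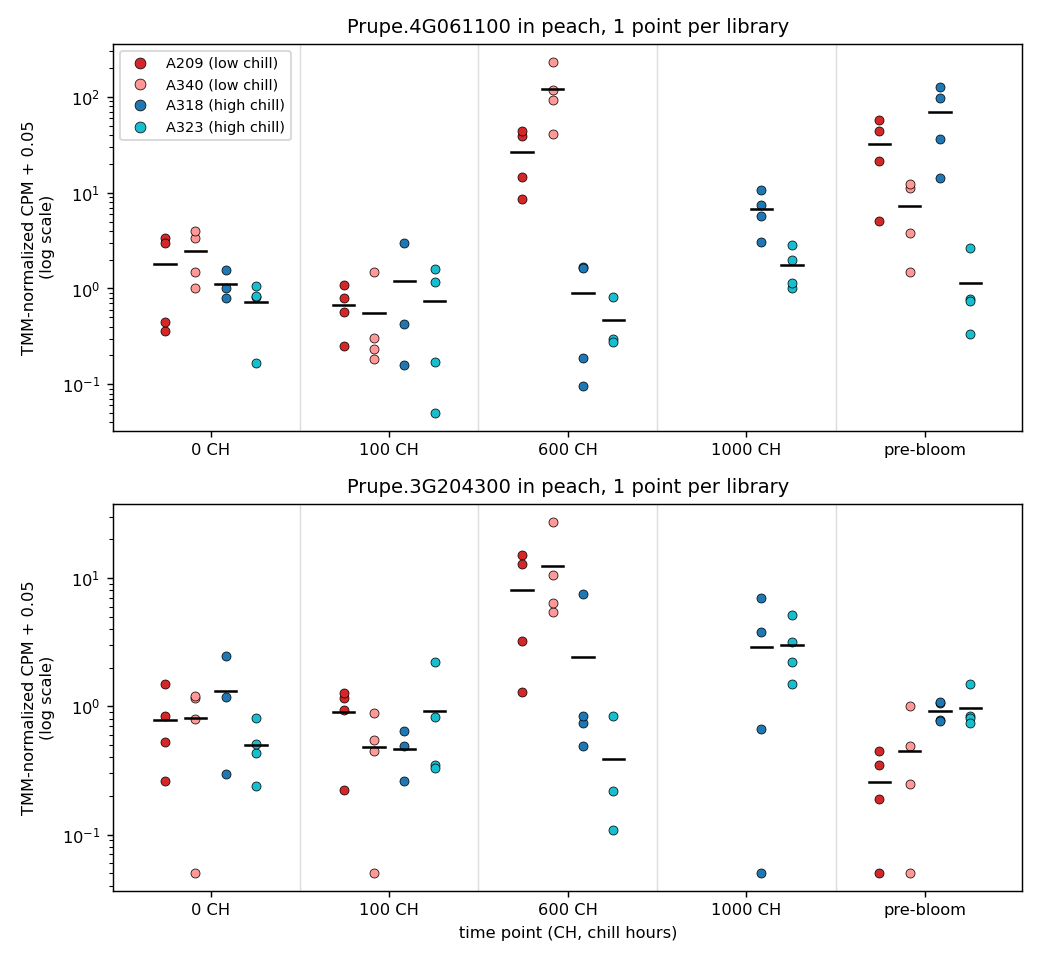
TMM-normalized CPM of Prupe.4G061100 (top) and Prupe.3G204300 (bottom) in the peach libraries by time point, drawn as for apricot, with 0.05 added on a log axis and bars for group means. Low chill libraries at 600 chill hours are at 8.57 CPM or above in Prupe.4G061100, and at pre-bloom this gene is at 14.3 to 128 CPM in A318 but at 0.285 to 2.62 CPM in A323.

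At pre-bloom the genes parted in the tested steps of A318, A209 and A340. Only Prupe.4G061100 was called there, as higher. In A323 neither gene was called. In A318, Prupe.4G061100 was at 36.2, 128, 97.0 and 14.3 CPM (68.9 ± 52.7, SD, n = 4), after 7.48, 5.72, 10.5 and 3.03 CPM at 1000 chill hours. All pre-bloom libraries were above all of 1000 chill hours, and the gain was 3.56 ± 0.831 on the log2 scale (adjusted p = 9.48e-04, edgeR; 25.7% of genes called). In A323 it was at 2.62, 0.726, 0.285 and 0.687 CPM at pre-bloom and at 1.94, 2.77, 0.970 and 1.08 CPM at 1000 chill hours, overlapping sets that did not pass the test (-0.88 ± 1.11, adjusted p = 0.629; 20.9% called). A318 exceeded A323 at pre-bloom by 6.26 ± 0.905 (adjusted p = 5.49e-07; 6.53% called), with no overlap. The contrast of their 1000 chill hour to pre-bloom changes, added after these values were seen, was 4.44 ± 1.402 (adjusted p = 0.0712; 2.70% called), and it passed without A318 pre-bloom replicate 4 (adjusted p = 0.0343) or A323 pre-bloom replicate 1 (0.0440).

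In the low chill genotypes at pre-bloom Prupe.4G061100 was at 58.1, 21.4, 44.6 and 4.999 CPM in A209 (32.3 ± 23.7, n = 4) and at 11.2, 12.2, 3.72 and 1.45 CPM in A340 (7.16 ± 5.37, n = 4). From 100 chill hours this was a gain of 5.57 ± 0.901 in A209 (adjusted p = 2.66e-06, edgeR; 21.6% of genes called) and of 4.09 ± 0.956 in A340 (adjusted p = 8.58e-04; 25.6% called). In A209 the groups did not overlap, whereas in A340 the highest library of 100 chill hours (1.446 CPM) touched the lowest of pre-bloom (1.445 CPM). The A340 pre-bloom libraries held 2170063 to 5193181 counts, and those of 100 chill hours 8751290 to 22752322. At 0 chill hours, in A340 libraries of 1615959 to 6172374 counts, Prupe.4G061100 was at 0.969 to 3.96 CPM, which overlapped pre-bloom. The part of depth in the A340 gain was not tested. A209 against A340 at pre-bloom did not pass (2.07 ± 0.781, adjusted p = 0.156; 2.09% called), nor did low against high chill (-0.97 ± 0.703, adjusted p = 0.295; 33.5% called), whose direction turned to 0.85 (adjusted p = 0.277) as a contrast of genotype means. Without a test, the A340 mean at pre-bloom was 5.88% of that at 600 chill hours, and for Prupe.3G204300 the share was 3.21%. In A209 the direction depended on the measure, since the ratio of 600 chill hours to pre-bloom was 0.826 by means and 1.51 by summed counts, with pre-bloom replicate 1 at 30 counts in a library of 494799.

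Prupe.3G204300 was low at pre-bloom in every genotype. It was at 0, 0.397, 0.297 and 0.139 CPM in A209 and at 0, 0.436, 0.196 and 0.964 CPM in A340, with 3 counts or fewer in all 8 libraries. It was at 1.004, 0.733, 0.719 and 1.03 CPM in A318 and at 0.786, 1.45, 0.759 and 0.687 CPM in A323. The summed counts were 5 in A209 and 4 in A340, after 556 and 1144 at 600 chill hours. The change from 100 chill hours was -1.57 ± 1.13 in A209 (adjusted p = 0.346, edgeR) and -0.17 ± 1.24 in A340 (adjusted p = 0.944). A318 against A323 gave -0.10 ± 0.830 (adjusted p = 0.979), and low against high chill gave -1.48 ± 0.841 (adjusted p = 0.173).

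At 1000 chill hours, a collection made in the high chill genotypes alone, both genes had moved in A318. Prupe.4G061100 gained 2.99 ± 1.10 from 100 chill hours (adjusted p = 0.0365, edgeR; 27.3% of genes called) and Prupe.3G204300 gained 2.88 ± 0.972 (adjusted p = 0.0231). In this step the median of all genes tested shifted by 0.181, so that relative to it the gains were 2.80 and 2.70. The A318 libraries at 1000 chill hours had 529219, 1279823, 1509999 and 8316974 counts, and 3 of them fell under the depth limit named above. Without such libraries, which leaves 1 library at 1000 chill hours, assumed to vary like the other groups, Prupe.4G061100 gave 1.94 ± 1.37 (adjusted p = 0.306). Its call was also lost without replicate 3 or 4 of 100 chill hours or replicate 2 or 3 of 1000 chill hours, each alone (adjusted p from 0.0545 to 0.182). The Prupe.3G204300 call rested on replicate 4, which had 6.98 CPM (76 counts) beside 3.74, 0 and 0.619 CPM in the others (2, 0 and 1 counts): without it the gain was 1.07 (adjusted p = 0.671). It was also lost without any 1 of the 3 libraries of 100 chill hours (adjusted p from 0.0566 to 0.0826).

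In A323 at 1000 chill hours Prupe.3G204300 was at 3.11, 5.14, 1.45 and 2.17 CPM, after 0.297, 0.282, 0.772 and 2.16 CPM at 100 chill hours, sets that overlapped only through replicate 4 of 100 chill hours. The gain of 1.83 ± 0.834 did not pass (adjusted p = 0.0929 with edgeR, 28.4% of genes called, median shift of all genes 0.104), and without that replicate it was 2.70 (adjusted p = 0.0255). Prupe.4G061100 gained 1.48 ± 1.08 (adjusted p = 0.309). The change did not differ detectably between A323 and A318, at -1.50 ± 1.55 for Prupe.4G061100 (adjusted p = 0.851; 0.00443% of genes called) and -1.05 ± 1.25 for Prupe.3G204300 (adjusted p = 0.879). By their cited chill requirements, A318 and A323 need not have been at the same stage at 1000 chill hours. A318 against A323 at 1000 chill hours gave 1.83 ± 1.03 (adjusted p = 0.371; 1.01% called) and 0.23 ± 0.834 (adjusted p = 0.928). From 1000 chill hours to pre-bloom Prupe.3G204300 changed by -1.95 ± 0.823 in A318 (adjusted p = 0.0705, and 0.0450 and 0.0498 without replicate 2 or 3 of 1000 chill hours) and by -1.62 ± 0.856 in A323 (adjusted p = 0.180).

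The anther and tapetum genes moved with the low peach levels of Prupe.4G061100. Their sum was 1.60 to 63.3 CPM (median 13.5) in the 30 peach libraries of 0 and 100 chill hours, against 23.6 to 3463 CPM (median 1823) in the 8 low chill libraries of 600 chill hours, and the highest of those 30 sums came from A340 replicate 3 at 0 chill hours, a library of 1615959 counts. Per 100 CPM of these genes, Prupe.4G061100 stood at a median of 6.31 CPM in the 0 and 100 chill hour libraries, 5.0 in high chill buds at 600 chill hours, 3.66 at 1000 chill hours and 3.47 in low chill buds at 600 chill hours. Library depth and the anther genes thus moved with the rise from 100 to 1000 chill hours, and their part in it was not tested.

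Other groups left that proportion. Prupe.4G061100 stood at 153 to 1873 CPM per 100 CPM of anther genes in A318 at pre-bloom and at 13.7 to 202.5 in A209 at pre-bloom, and at 992 in A340 replicate 1 at 600 chill hours. In A340 and A323 at pre-bloom it stood at 2.48 to 20 and 6.38 to 13.04, within or near the range of the 0 and 100 chill hour libraries (0 to 20.5). Prupe.3G204300 stood at 0.112 to 0.632 per 100 CPM in A209 at 600 chill hours and at 1.79 to 6.31 in A323 at 1000 chill hours, and the highest value of any 600 or 1000 chill hour library, 68.5, was that of A318 replicate 4 at 600 chill hours.

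**Figure D4:**
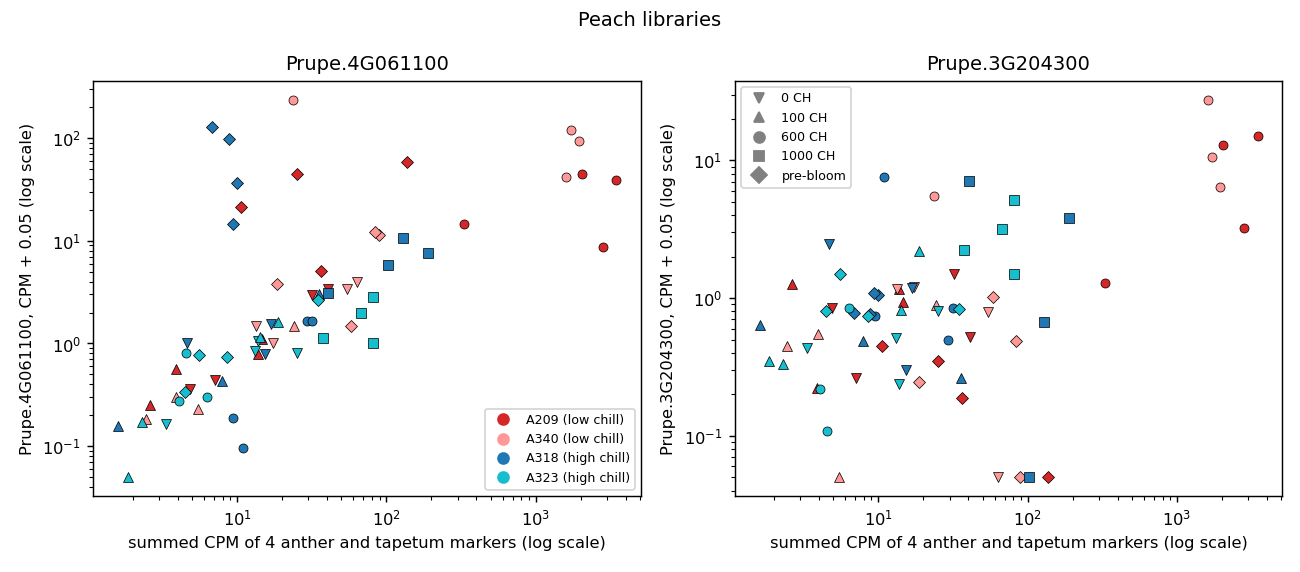
Level of Prupe.4G061100 (left) and Prupe.3G204300 (right), with 0.05 added, against the summed CPM of 4 anther and tapetum genes in the 69 peach libraries, both on log axes; colours are genotypes and symbols time points. The left panel shows 1 band running from the 0 and 100 chill hour libraries to those of 1000 chill hours. Far above it are the 4 A318 pre-bloom libraries (14.3 to 128 CPM) and A340 replicate 1 at 600 chill hours (234 CPM). A209 pre-bloom replicates 2 and 3 (21.4 and 44.6 CPM) also lie far above it.

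The other pollen genes, taken from the study's text and tables and therefore chosen on the same libraries, were 15 in number. They were 3 more genes that the study's tables place in the Ole e 1 family, 5 pollen wall and tapetum genes and 7 lipid transfer protein genes. Only some members of the lipid transfer protein family carry lipids across the tapetum and to the pollen surface. In A1956 from 400 chill hours to sepal visible 2 of 15 rose and 2 fell (of all genes, 26.5% rose and 20.7% fell). In A1267 from 800 chill hours 6 rose and 2 fell (32% and 30.7% of all genes). The list medians were 0.88 and 1.23 on the log2 scale beside 0.04 and 0.00 for all genes tested. From sepal to petal visible, where Prupe.3G204300 rose in all 4 genotypes, 1 of 15 was called in A2137, 3 in A1956, 4 in A660 and 3 in A1267, in either direction, against 44.8%, 42.4%, 44.2% and 33% of all genes. From petal visible to flower in A2137, where both genes fell, 3 of 15 fell and 0 rose (26.9% of all genes fell).

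In peach 14 of the 15 could be tested. From 1000 chill hours to pre-bloom in A318, 13 of 14 fell, as did 12.9% of all genes (median -3.65, all genes -0.08), in the step in which Prupe.4G061100 rose. In A323, 8 of 14 fell and 0 rose (9.17% of all genes fell). From 100 to 1000 chill hours 9 of 14 rose in A318 and 11 of 14 in A323 (medians 3.33 and 3.17), beside 15.3% and 15.4% of all genes. At pre-bloom 11 of 14 were higher in low than in high chill genotypes (median 2.22, all genes -0.03), beside 16.1% of all genes, and neither Prupe.4G061100 nor Prupe.3G204300 was called. The dormancy genes DAM4, DAM5 and DAM6 were called higher in low chill there too. Depth differed as well: low chill pre-bloom libraries held 494799 to 7153313 counts, and high chill ones 3856248 to 16036703. In A318 at 1000 chill hours the shallowest library (529219 counts) had the highest anther gene sum, 190.6 CPM. The deepest (8316974 counts) had the lowest, 40.8 CPM. The part of depth in these counts was not tested.

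Of the other genes listed with the family, Prupe.1G133700 is called a gamete expressed protein in the study's text and an Ole e 1 family member in its tables. It averaged 278 CPM in A2137 at 400 and 330.5 CPM in A660 at 800 chill hours, 7.48 CPM in A660 at sepal visible and 0.613 CPM or less in the other apricot genotypes at that stage. In peach it averaged 444 CPM in A209 and 299 CPM in A340 at 600 chill hours. Prupe.4G004300 had its highest mean at 0 chill hours in A1956, A660 and A1267 (1.47 to 3.80 CPM) and in the 4 peach genotypes (6.14 to 9.49 CPM), and at 400 chill hours in A2137 (3.92 CPM). Prupe.6G181300, a gene listed as SAH7, averaged 0.959 CPM in A2137 at 400 chill hours and 0.243 CPM or less in every other group. MS2 and LAP6, at 826 and 751 CPM in ecodormant A2137, had averages of 0.416 and 0.347 CPM there at sepal visible, when Prupe.4G061100 averaged 133 CPM.

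**Figure D5:**
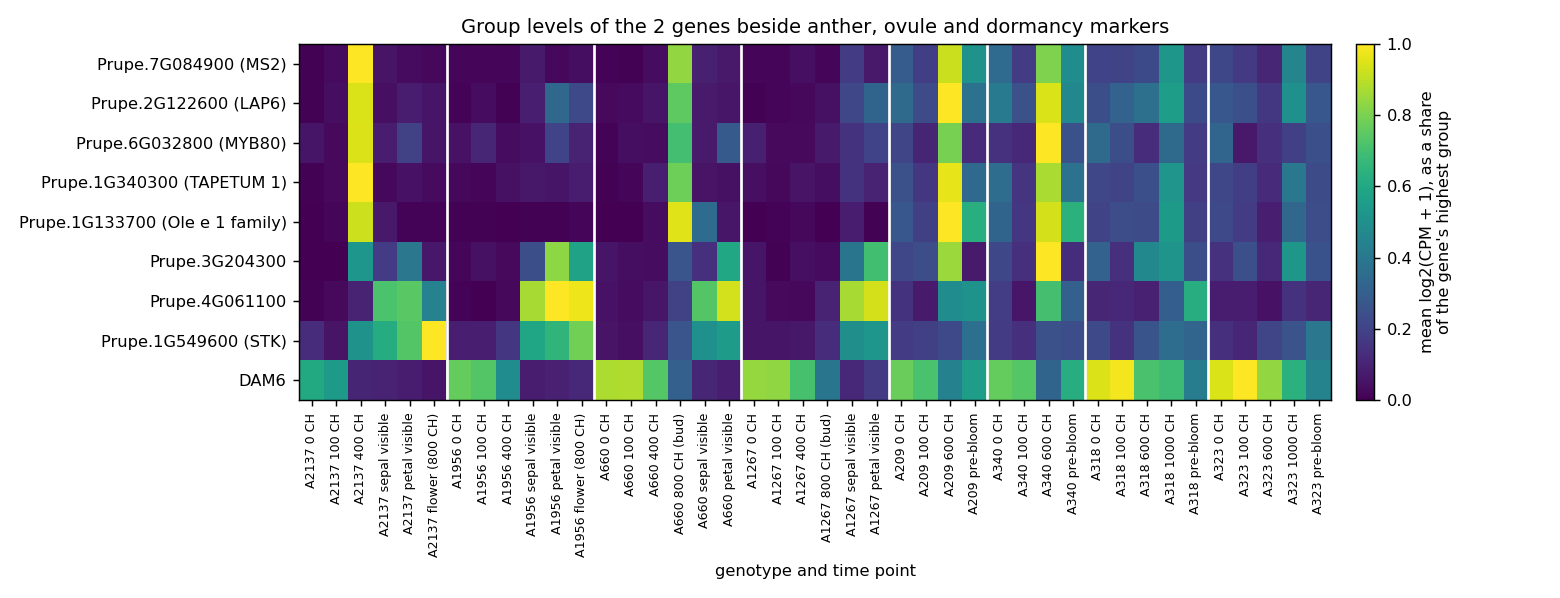
Group means of log2(CPM + 1) for both genes beside anther and tapetum genes, another Ole e 1 family gene, the ovule gene STK and the dormancy gene DAM6, each scaled to the gene's own highest group, for every genotype and time point. Anther genes peak in A2137 at 400, A660 at 800 and low chill peach at 600 chill hours, Prupe.3G204300 shares these peaks and has a further one at petal visible in apricot, and Prupe.4G061100 is high in apricot from sepal visible on.

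The dormancy gene DAM6, a MADS-box gene linked to the arrest of bud growth, fell in apricot between 0 chill hours and sepal visible, where Prupe.4G061100 rose. DAM6 averaged 94.3 to 705 CPM in the apricot genotypes at 0 chill hours and 0.808 to 1.30 CPM at sepal visible. In the ecodormant libraries, with Prupe.4G061100 still at 0.234 to 5.45 CPM, DAM6 was already at 0.277 to 15.3 CPM. In flowers DAM6 was at 0.247 to 2.31 CPM. In peach it averaged 25.5 CPM in A209 and 10.04 CPM in A340 at 600 chill hours, against 208.6 CPM in A318 and 532.5 CPM in A323. It averaged 22.3 CPM in A318 and 27.3 CPM in A323 at pre-bloom, a similar level for the genotypes that differed most in Prupe.4G061100.

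Across libraries, the patterns of both genes were compared with all genes tested, as Pearson correlations of log2(CPM + 1) over libraries that share depth and stage. In apricot (60 libraries) the 5 genes most like Prupe.4G061100 were Prupe.8G164800 (r = 0.996), Prupe.6G000400 (0.995), Prupe.6G023400 (0.994), Prupe.5G066900 (0.994) and Prupe.4G049000 (0.993). In peach (69 libraries) they were Prupe.6G000400 (0.969), Prupe.1G461700 (0.946), Prupe.5G232700 (0.912), Prupe.6G000500 (0.910) and Prupe.3G243400 (0.908). Of the 50 most like genes, 14 were the same in both species, with Prupe.6G000400, Prupe.4G049000, Prupe.8G237700, Prupe.7G155900 and Prupe.1G461800 first among them.

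Prupe.3G204300 had less close neighbours. In apricot they were Prupe.3G026900 (r = 0.954), Prupe.3G067500 (0.950), Prupe.3G216600 (0.926), Prupe.8G092000 (0.919) and Prupe.6G106500 (0.919). In peach they were Prupe.2G029600 (0.875), Prupe.1G017100 (0.837), Prupe.1G415800 (0.808), Prupe.1G490000 (0.807) and Prupe.2G291200 (0.806), the last a lipid transfer protein gene. Of its 50 most like genes 1 was shared between the species, Prupe.5G188700. The 2 genes correlated with each other at r = 0.776 in apricot and 0.413 in peach, and neither was near the top of the other's ranking, at places 1166 and 2108 in apricot and 1050 and 2265 in peach.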

How the data were processed

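Counts were analysed as deposited: the authors trimmed reads (single-end in apricot, paired-end in peach), removed ribosomal RNA reads from the peach libraries, aligned with STAR 2.5.3a to the peach genome v2.0 (with DAM gene models from an earlier release) and counted reads per gene over exons with HTSeq, giving raw counts for 129 libraries. Strand settings are not given in the sources used here.

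The count table of each species was fitted with edgeR 4.0.16 in R 4.3.3 (quasi-likelihood F test, TMM, filterByExpr with a minimum count of 10 and a minimum total of 15) with 1 coefficient per genotype and time, and p-values were adjusted by Benjamini-Hochberg over all genes tested, with 0.05 as the threshold. Scripts were tested on simulated data. Phenotype comparisons used 1 coefficient per phenotype and time. Libraries of a genotype and time come from separate collections of clonal trees, so p-values measure the spread between clones. In the phenotype comparisons they also take in the spread between the genotypes of a class. For early against late blooming at sepal visible 1327 genes were called, and 6355 as a contrast of genotype means. No pair of libraries in a group agreed within sampling noise. Counting intervals and floors cover counting error only.

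Genes were named by a rule: both members, the listed pollen genes, and the 5 genes with the highest Pearson correlation to each member in each species. The members and lists were chosen with earlier results of these data known, and the 2 contrasts described as added came after the data were seen. DESeq2 1.42.0, other normalization, no filter, a replicate block, omission of shallow libraries, separate fits and omission of each library were the alternatives. A minimum fold change of 2 (glmTreat) was a further alternative, run in apricot alone. None of the 26872 identifiers matched the reference gene table, so no coordinates or sequences are given.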

Additional observations from a re-analysis of the deposited data

Results flagged for a closer look

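In sets of 4 libraries, 3 values stood apart from the other 3 of their group by Dixon's test. Prupe.4G061100 was at 1.446 CPM in A340 replicate 1 at 100 chill hours, Prupe.3G204300 was at 7.493 CPM in A318 replicate 4 at 600 chill hours, and Prupe.3G204300 was at 1.452 CPM in A323 replicate 2 at pre-bloom. Each was the highest of its set. Chance marks about 1 in 20 such sets where values follow a normal distribution, which CPM near the floor need not do. There were 30 sets, and those with 3 counts or fewer in every library were not tested (Prupe.3G204300 in A209 and A340 at pre-bloom).

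The petal visible to flower change differed between A2137 and A1956 by -2.7610 on the log2 scale for Prupe.4G061100 and by -2.2268 for Prupe.3G204300, both past the threshold of edgeR's test of the difference, a contrast added after the values were seen.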

How the results depend on the processing

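Log2 changes are given with edgeR unless DESeq2 is named, and the cause of a change was not tested. The minimum fold change of 2 was tested in apricot alone, so the peach calls were not put to it. Against a minimum fold change of 2 the calls were lost for Prupe.3G204300 from sepal to petal visible in A2137 (1.66, adjusted p = 0.210) and A1267 (1.53, 0.419), in A660 against A1267 at sepal visible (-2.01, 0.0553) and in the flower contrast (-2.23, 0.184), and for Prupe.4G061100 in A1956 from sepal to petal visible (1.29, 0.538) and at sepal visible in A2137 against A1956 (-1.50, 0.632) and A660 against A1267 (-1.36, 0.402). DESeq2 lost the last 3 of these (1.37, -1.48 and -1.39; adjusted p = 0.155, 0.116 and 0.0678) and called Prupe.4G061100 in A1267 from 400 to 800 chill hours (2.79, 0.0118). With no low-count filter the A1956 step was 1.27 (0.0507). Without shallow libraries A318 has 1 library at 1000 chill hours, replicate 4, assumed to vary like the other groups. There, from 100 to 1000 chill hours, Prupe.4G061100 was 1.94 without shallow libraries (0.306) and 2.83 with the compared libraries alone (0.0648). Calls were gained by Prupe.3G204300 in A1956 from petal visible to flower (-1.09, 0.0171) and Prupe.4G061100 in the A318 minus A323 change to pre-bloom (4.46, 0.0346), both with the compared libraries alone, and by Prupe.3G204300 in A318 from 1000 chill hours to pre-bloom without shallow libraries (-2.93, 0.0461), against that 1 library, which held 76 counts beside 2, 0 and 1 in the others. For 12 results the compared libraries alone gave no value, since the gene did not pass the filter.

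The replicate block changed no call, and turned only differences near 0 (Prupe.4G061100 in A660 against A1267 at petal visible 0.052, Prupe.3G204300 in A318 against A323 at 1000 chill hours -0.0727). It gave each replicate number 1 coefficient shared by all genotypes of a species. It therefore cannot show whether numbers pair trees within a genotype. Same-numbered libraries correlated over 0.1 in 20 of 30 pairs in A1267 (median r 0.168) and 20 of 45 in A660, and in 1 to 10 pairs of each other genotype (median r from -0.001 to 0.031). Differently numbered libraries had a median r of -0.096 in A1267 and -0.039 in A660. Not every same-numbered pair correlated over 0.1 in any genotype, so the numbers were not taken to pair trees. A pairing of trees in A1267 and A660 is possible and was not fitted. A contrast of genotype means turned Prupe.4G061100 in low against high chill at pre-bloom to 0.85 (adjusted p = 0.277).

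Leaving out 1 library at a time gave, for Prupe.4G061100, 2.17 to 3.60 (A1267, 400 to 800 chill hours), 1.14 to 1.47 (A1956, sepal to petal visible), -1.82 to -1.32 (A2137 against A1956, sepal visible), -1.76 to -1.16 and -0.33 to 0.53 (A660 against A1267, sepal and petal visible), 1.04 to 1.90 (their difference in the step between), -0.51 to 0.055 (early against late, sepal visible), 2.18 to 4.5962 (A318, 100 to 1000 chill hours) and 3.95 to 5.14 (A318 minus A323, change to pre-bloom). For Prupe.3G204300 it gave 1.11 to 1.83 (A1267, sepal to petal visible), 1.24 to 1.95 (A660 minus A1267 in that step), -0.49 to 0.15 (early against late, petal visible), -2.60 to -1.88 (flower contrast), 1.07 to 3.20 (A318) and 1.45 to 2.70 (A323) from 100 to 1000 chill hours, -2.29 to -0.15 (A318, 1000 chill hours to pre-bloom), -0.88 to 0.23 (A340, 100 chill hours to pre-bloom), -1.58 to 0.60 and -0.22 to 0.23 (A318 against A323, 1000 chill hours and pre-bloom), -1.43 to 0.75 (A323 minus A318, 100 to 1000 chill hours) and -0.70 to 1.48 (A318 minus A323, change to pre-bloom).

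Of the 5 genes most like each member, 1 to 3 stayed among the 5 with another pseudocount or a Spearman correlation. Depth limits the shallow peach libraries most, where 3 counts reach 6.06 CPM.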
